A study of Mus musculus and Homo sapiens with 34 samples.

Results

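CT26 is an established mouse colorectal carcinoma line, grown here as spheroids for 7 days either with decellularised small intestinal submucosa extracellular matrix (SIS ECM) or as cells alone. The labels number the spheroid samples of each kind 1 to 6, and the comparison described here asks whether the response to SIS ECM was the same in numbers 4 to 6 as in numbers 1 to 3. It is the interaction, the SIS ECM minus cells-alone difference in numbers 4 to 6 minus the same difference in numbers 1 to 3. It uses 12 of the 34 libraries of the study, 3 each of SIS ECM 4 to 6, cells alone 4 to 6, SIS ECM 1 to 3 and cells alone 1 to 3. The labels name no genetic change or drug for any of the 12, which were grown in ultra-low attachment round-bottomed plates, with 10 spheroids collected per tube. The labels give no meaning to the sample number: a division between 3 and 4 was proposed with earlier results of these data known, and handling and number cannot be told apart. The labels also do not say whether libraries of a group were separate cultures, so the p-values describe only how far these libraries scatter, and that scatter may be technical. The other libraries, 10 from the mouse line MC38 and 12 from the human line HT29, are used only to set the CT26 interaction beside the same contrast.

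SIS ECM is a matrix scaffold left after cells are removed from intestinal submucosa, rich in fibrillar collagens, laminins, fibronectin and bound growth factors. Tumour cells meet such matrix through integrins and other receptors, and they remodel it with secreted proteases. Inside a spheroid, oxygen and nutrients fall toward the core, where HIF factors switch on glycolytic and angiogenic genes. Misfolded protein in the endoplasmic reticulum switches on chaperones, and interferon signalling switches on antiviral and antigen presentation genes.

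Library totals ran from 15826162 to 21053754 expected counts, and 12729 of 55450 genes passed the filter on low counts. Mitochondrially encoded genes took 8.01% ± 0.508 of counts in SIS ECM 4 to 6, 8.14% ± 0.234 in cells alone 4 to 6, 3.9% ± 0.289 in SIS ECM 1 to 3 and 4.93% ± 0.0985 in cells alone 1 to 3 (SD, n = 3 each). SIS ECM library 3 stood apart: its median absolute log2 difference from the other libraries of its group was 0.23, against 0.0716 to 0.176 in the other 11. Counts without it are given with the gene lists and beside the other libraries left out. Of 11 colon carcinoma markers only Cdx2, Krt18, Krt20 and Lgals4 passed the filter, and the epithelial genes Epcam, Cdh1 and Cldn7 had 0 counts in all 12 libraries, so the labelled carcinoma type is only partly borne out by these markers. None of 12 endothelial markers passed the filter. Of 13 fibroblast markers 6 did, among them Col1a2 at 369 to 667 CPM and Pdgfra at 14.2 to 30.8 CPM, while Thy1 had 0 counts. Of 9 smooth muscle markers 2 passed, Smtn and Mylk, while Cnn1 and Lmod1 had 0 counts. In bulk RNA, fewer cells of a type and less RNA per cell cannot be told apart.

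Among called genes the direction of the SIS ECM response was mostly shared by the ranges. Its median size over all genes tested was larger in numbers 1 to 3. In numbers 4 to 6, 757 genes rose (5.95% of genes tested) and 384 fell (3.02%), while in numbers 1 to 3, 1990 rose (15.6%) and 1981 fell (15.6%), all by edgeR's quasi-likelihood test at a Benjamini-Hochberg adjusted p below 0.05. The same test of the interaction called 31 genes. Of these, 12 had a response that was higher in numbers 4 to 6 than in 1 to 3 (0.0943%) and 19 had one that was lower (0.149%). DESeq2 split the interaction as 235 higher and 109 lower. At an unadjusted p below 0.05 the interaction held 2267 genes, 17.8% of those tested.

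In both ranges, 586 genes rose (4.6%) and 256 fell (2.01%), and these are called held below; 5 of them, Prdm1, Rdh10, Hexa, Elovl6 and Ankrd1, are also interaction genes. The 842 held genes made up 73.8% of the 1141 genes called in numbers 4 to 6 and 21.2% of the 3971 called in numbers 1 to 3. Of the 757 genes that rose in numbers 4 to 6, 729 had a positive response in numbers 1 to 3 (96.3%), and of the 1990 that rose in numbers 1 to 3, 1737 had a positive one in numbers 4 to 6 (87.3%). The first set had a median log2 response of 0.55 in numbers 4 to 6 and 0.55 in numbers 1 to 3. The second set had medians of 0.23 and 0.53 on the same scale and in the same order. The absolute response was larger in numbers 1 to 3 for 332 of the 586 held rises and 163 of the 256 held falls. Over all genes tested the median absolute log2 response was 0.13 in numbers 4 to 6 and 0.21 in numbers 1 to 3, and the responses correlated across genes with Pearson's r 0.52 and Spearman's rho 0.477, a description only, since genes share libraries and are not replicates.

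**Figure D1:**
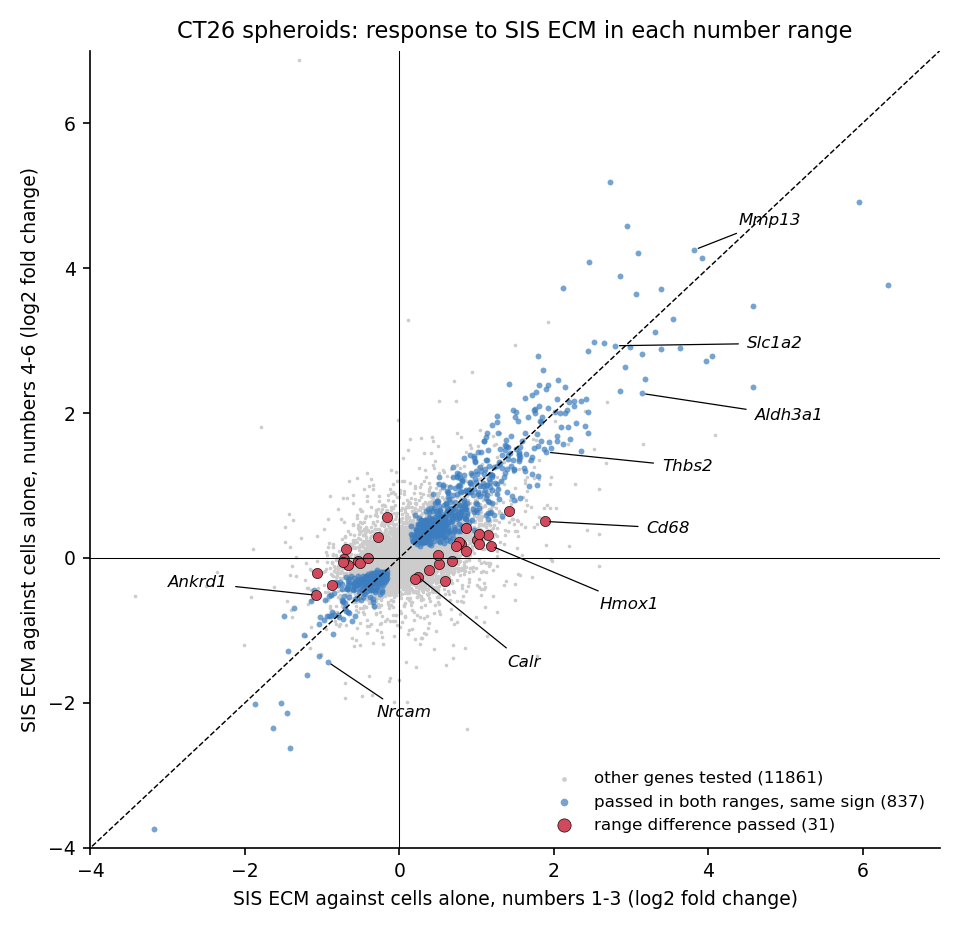
Response of each gene to SIS ECM as a log2 fold change in numbers 4 to 6 (vertical axis) against numbers 1 to 3 (horizontal axis), with the line of equal response dashed. The 837 held genes that did not pass the interaction with all 12 libraries are blue. The 31 interaction genes are red and 11861 other genes are grey, with 11 genes outside the plotted range. The held genes run along the diagonal and the red ones lie off it.

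Interferon-stimulated genes, the antiviral effectors, had more held members than any other of the 42 gene lists. Of 32 interferon-stimulated genes, 24 rose in both ranges and 1, Ifit2, fell in both, with a median log2 response of 1.09 in numbers 4 to 6 and 1.27 in numbers 1 to 3, against −0.00283 and 0.018 over all genes tested. None of the 32 passed the interaction by edgeR's quasi-likelihood test. At an unadjusted p below 0.05 there were 5, beside 17.8% of all genes tested, and DESeq2 and limma voom called 0 each. Without SIS ECM library 3, 2 of the 32 were higher and 6 lower in their response in numbers 4 to 6. In that setting 23.9% of all 12953 genes tested passed, 1835 higher and 1266 lower.

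The promoters of these genes are shown because the group moved together in both ranges. The motif searched was GAAA, then any 2 bases, then GAAA, on either strand, the core of the interferon-stimulated response element, in RefSeq promoters of 300 bases around each gene's start (GRCm38.p6). It stood in 44% of the 25 promoters matched to the list, 12% of the 525 of genes that rose in both ranges, 1.81% of the 276 of genes that fell in both, and 3.22% of the 11674 of all genes tested. Of the 24 list members that rose in both ranges, 16 had a promoter entry and 10 of those held the motif. Windows of 9 of these, chosen after their values were seen, are printed. Each line gives the first match, on the gene's strand, in capitals with up to 10 bases on either side.
Ddx58, chr4:40239804-40239833, minus strand: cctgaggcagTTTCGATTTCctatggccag
Ifih1, chr2:62646206-62646233, minus strand: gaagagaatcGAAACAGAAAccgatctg
Ifit1, chr19:34640775-34640804, plus strand: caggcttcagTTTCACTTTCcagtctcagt
Ifit3, chr19:34583363-34583392, plus strand: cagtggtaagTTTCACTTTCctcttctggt
Ifit3b, chr19:34607759-34607788, plus strand: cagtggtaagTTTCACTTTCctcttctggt
Ifitm3, chr7:141010723-141010752, minus strand: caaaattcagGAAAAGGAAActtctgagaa
Isg15, chr4:156200877-156200906, minus strand: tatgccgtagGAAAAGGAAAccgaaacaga
Oas1a, chr5:120907526-120907555, minus strand: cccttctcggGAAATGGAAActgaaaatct
Oas3, chr5:120777715-120777744, minus strand: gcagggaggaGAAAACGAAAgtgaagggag
The 9 windows carry the same repeated core in either orientation, and those of the near copies Ifit3 and Ifit3b have identical letters. Reads of that pair may have been split between them in counting. Log2 responses of the 9 genes ran from 0.73 to 1.52 in numbers 4 to 6 and from 0.69 to 1.75 in numbers 1 to 3. A match describes letters only, not occupancy. The promoters of Oasl2 and Xaf1, which the rule for naming genes picked out, hold no match in this window.

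Oasl2, a member of the oligoadenylate synthetase family that acts in antiviral defence, had 39.2, 43.6 and 43.6 CPM in SIS ECM 4 to 6, against 15.8, 15.8 and 17.9 CPM in cells alone 4 to 6. Oasl2 had 63.8, 52.4 and 59.1 CPM in SIS ECM 1 to 3 and 21.3, 22.7 and 19.5 CPM in cells alone 1 to 3 (libraries in number order here and below). Every SIS ECM library was above every cells-alone library of its range. The log2 fold change was 1.35 ± 0.09 in numbers 4 to 6 and 1.47 ± 0.09 in numbers 1 to 3 (± SE), with adjusted p 4.39e-07 and 9.51e-08 by edgeR's quasi-likelihood test. Its interaction of −0.11 ± 0.13 had an adjusted p of 0.651. Xaf1, an interferon-induced antagonist of the apoptosis inhibitor XIAP, had 13.7, 16.6 and 16.2 CPM in SIS ECM 4 to 6, against 5.53, 5.69 and 6.05 CPM in cells alone 4 to 6. Xaf1 had 16.9, 17.3 and 16.4 CPM in SIS ECM 1 to 3 and 6.87, 6.33 and 5.88 CPM in cells alone 1 to 3. Its SIS ECM libraries lay at like levels in both ranges, with log2 fold changes of 1.43 ± 0.11 in numbers 4 to 6 and 1.41 ± 0.10 in numbers 1 to 3.

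Upstream of these effectors, 7 of 17 tested interferon receptors and signalling factors rose in both ranges, with median log2 responses of 0.10 in numbers 4 to 6 and 0.19 in numbers 1 to 3. Irf9, an interferon regulatory factor, had log2 fold changes of 0.76 ± 0.10 in numbers 4 to 6 and 0.87 ± 0.10 in numbers 1 to 3; its exons overlap those of Rnf31, so its counts are less certain.

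The interferon-inducible GTPases, which attack the vacuoles of intracellular microbes, rose in both ranges in 10 of 15 tested members, with median log2 responses of 1.25 in numbers 4 to 6 and 1.09 in numbers 1 to 3. Tgtp2, an immunity-related GTPase, had 7.80, 5.63 and 7.21 CPM in SIS ECM 4 to 6, 1.64, 2.06 and 1.61 CPM in cells alone 4 to 6, 9.90, 6.13 and 7.93 CPM in SIS ECM 1 to 3 and 3.00, 1.76 and 1.83 CPM in cells alone 1 to 3. Its log2 fold changes were 1.95 ± 0.24 in numbers 4 to 6 and 1.85 ± 0.22 in numbers 1 to 3. Gbp9, a guanylate-binding protein whose exons overlap Gbp4 and Gbp8, gave 1.87 ± 0.17 and 1.84 ± 0.16.

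MHC class I presentation followed, with 10 of 18 members risen in both ranges and median log2 responses of 0.45 in numbers 4 to 6 and 0.71 in numbers 1 to 3. B2m, the light chain of every class I molecule, had 923, 844 and 835 CPM in SIS ECM 4 to 6, against 527, 502 and 512 CPM in cells alone 4 to 6. B2m had 625, 617 and 654 CPM in SIS ECM 1 to 3 and 417, 422 and 411 CPM in cells alone 1 to 3. The level was higher in numbers 4 to 6 in both cultures, while the log2 fold change was 0.76 ± 0.06 in numbers 4 to 6 and 0.60 ± 0.06 in numbers 1 to 3. Tap1, a subunit of the transporter that feeds peptides to class I molecules, gave 1.01 ± 0.14 and 1.13 ± 0.13, and its exons overlap Psmb9 on the other strand. None of the GTPases, signalling factors or class I genes passed the interaction by edgeR's quasi-likelihood test. At an unadjusted p below 0.05 there were 1, 1 and 4, DESeq2 called 0, 0 and 1, and limma voom called 0 of each. Without SIS ECM library 3, edgeR's test called 1 GTPase higher, 1 signalling factor higher and 1 lower, and 1 class I gene higher and 3 lower. The shares over all genes tested were 17.8% at the unadjusted p and 23.9% without library 3.

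A matrix protease had the largest held response among genes whose mean log2 CPM reached 2. Mmp13, a collagenase that cleaves fibrillar collagen, had 110.3, 100.3 and 100.5 CPM in SIS ECM 4 to 6, against 5.53, 4.96 and 5.82 CPM in cells alone 4 to 6. Mmp13 had 139, 126 and 149.7 CPM in SIS ECM 1 to 3 and 12.1, 9.49 and 7.76 CPM in cells alone 1 to 3. Every SIS ECM library stood far above every cells-alone library. The log2 fold change was 4.25 ± 0.13 in numbers 4 to 6 and 3.82 ± 0.12 in numbers 1 to 3, with adjusted p 7.53e-11 and 9.82e-11 by edgeR's quasi-likelihood test, and the interaction of 0.43 ± 0.18 had an adjusted p of 0.24. Without SIS ECM library 3 the interaction passed, at 0.50 ± 0.17 (adjusted p = 0.0354, edgeR's quasi-likelihood test). In all, 6 of 15 tested proteases and inhibitors rose in both ranges (Mmp3, Mmp10, Mmp13, Mmp14, Mmp19 and Timp2).

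Among matrix glycoproteins, Thbs2, which encodes thrombospondin 2, a matricellular inhibitor of angiogenesis, had 74.6, 71.7 and 71.2 CPM in SIS ECM 4 to 6, against 24.1, 27.3 and 27.6 CPM in cells alone 4 to 6. Thbs2 had 226, 203 and 201 CPM in SIS ECM 1 to 3 and 57.2, 56.9 and 54.1 CPM in cells alone 1 to 3. It was lower in both cultures of numbers 4 to 6 and still separated by culture in each range. Its log2 fold change was 1.46 ± 0.07 in numbers 4 to 6 and 1.91 ± 0.06 in numbers 1 to 3, and the interaction of −0.45 ± 0.09 missed the threshold at an adjusted p of 0.0604 by edgeR's quasi-likelihood test. Without SIS ECM library 3 the Thbs2 interaction passed, at −0.46 ± 0.09 (adjusted p = 0.00218, edgeR's quasi-likelihood test). Lama3, a laminin chain of epithelial basement membranes, rose by 0.91 ± 0.10 in numbers 4 to 6 and 1.396 ± 0.09 in numbers 1 to 3. Of 26 tested laminins and matrix glycoproteins, 4 rose and 2 fell in both ranges, beside 4.6% and 2.01% of all genes tested. Tgm2, a transglutaminase that crosslinks matrix proteins and whose exons overlap Rprd1b on the other strand, rose by 1.16 ± 0.21 and 1.09 ± 0.18. The laminin receptor subunit Itga6 fell in both ranges, with log2 fold changes of −0.45 ± 0.06 and −0.41 ± 0.06. It was the 1 held fall of 15 tested integrins and matrix receptors, and Itgb8 was the 1 held rise, at 1.38 ± 0.29 and 0.83 ± 0.25. Itgb8 reached at most 3.175 CPM, and its call in numbers 1 to 3 ended for 2 of the 12 libraries left out.

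Of 14 tested structural collagens, 1 rose in both ranges, Col3a1, and 1 fell, Col1a2, beside 4.6% and 2.01% of all genes tested. In numbers 1 to 3, 5 of the 14 rose and 2 fell, and without SIS ECM library 3, 10 rose and 2 fell. Col3a1, the chain of type III collagen, had 12.3, 11.5 and 10.6 CPM in SIS ECM 4 to 6, 5.90, 5.30 and 5.94 CPM in cells alone 4 to 6, 33.5, 27.0 and 21.97 CPM in SIS ECM 1 to 3 and 21.0, 14.8 and 19.8 CPM in cells alone 1 to 3. Its log2 fold change was 1.01 ± 0.17 in numbers 4 to 6 and 0.57 ± 0.14 in numbers 1 to 3. Its call in numbers 1 to 3 ended without SIS ECM library 1, at an adjusted p of 0.0533 by edgeR's quasi-likelihood test, the highest of a range that starts at 0.000129 over the libraries left out. Col1a2, a chain of type I collagen, had log2 fold changes of −0.28 ± 0.08 and −0.30 ± 0.08, and its call in numbers 4 to 6 ended when any 1 of 8 libraries was left out (SIS ECM 1, 4, 5 or 6, cells alone 2, 4, 5 or 6), with adjusted p between 0.0018 and 0.111 over the 12 settings. Both of its calls ended with limma on the authors' deposited log2 values (adjusted p 0.128 in numbers 4 to 6 and 0.102 in numbers 1 to 3). SIS ECM library 3 set the list's median collagen level 0.15 below cells alone on the log2 CPM scale, while SIS ECM 1 and 2 set it 0.59 and 0.60 above. In SIS ECM 4, 5 and 6 the same median was −0.13, 0.15 and 0.19.

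Of the redox genes, aldehyde dehydrogenases and aldo-keto reductases rose in both ranges in 5 of 17 tested members, beside 4.6% of all genes tested. Aldh3a1, which detoxifies aldehydes from lipid peroxidation, had 6.02, 5.45 and 5.65 CPM in SIS ECM 4 to 6, against 0.912, 1.39 and 1.21 CPM in cells alone 4 to 6. Aldh3a1 had 13.6, 15.6 and 12.9 CPM in SIS ECM 1 to 3 and 2.19, 0.791 and 1.69 CPM in cells alone 1 to 3. The cells-alone values rest on few counts, and the log2 fold change was 2.27 ± 0.25 in numbers 4 to 6 and 3.14 ± 0.21 in numbers 1 to 3. Akr1c18, which inactivates progesterone, rose by 1.71 ± 0.11 and 1.78 ± 0.11. The glutathione transferases Gsta4 and Gstm1 also rose in both ranges, by 1.10 ± 0.08 and 0.53 ± 0.10 in numbers 4 to 6 and by 0.79 ± 0.08 and 0.57 ± 0.09 in numbers 1 to 3. They were the 2 held rises of 27 tested NRF2 target and oxidative stress genes, beside 1 held fall. In that list 3 rose and 2 fell in numbers 4 to 6, and 11 rose and 5 fell in numbers 1 to 3.

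Other genes with large responses in both ranges came from varied classes. Slc1a2, a glutamate transporter, had 13.8, 13.4 and 12.7 CPM in SIS ECM 4 to 6, against 2.31, 1.56 and 1.38 CPM in cells alone 4 to 6. Slc1a2 had 24.7, 23.4 and 28.7 CPM in SIS ECM 1 to 3 and 5.19, 2.80 and 2.96 CPM in cells alone 1 to 3. It rose by 2.93 ± 0.22 on the log2 scale in numbers 4 to 6 and 2.80 ± 0.18 in numbers 1 to 3. The membrane scaffold Cask rose by 2.86 ± 0.19 and 2.45 ± 0.15, the guidance ligand Slit3 by 2.00 ± 0.21 and 2.15 ± 0.18, and the carboxylesterase Ces1f by 1.86 ± 0.11 and 2.29 ± 0.10. Prl2c2, a proliferin of the prolactin family with close copies in the mouse genome, rose by 2.19 ± 0.12 and 2.04 ± 0.11, and the interferon-inducible apolipoprotein Apol9b, which has a near copy, Apol9a, by 2.00 ± 0.16 and 2.09 ± 0.14. The intestinal cadherin Cdh17 had log2 fold changes of 2.04 ± 0.16 in numbers 4 to 6 and 1.75 ± 0.14 in numbers 1 to 3, and the simple epithelial keratin Krt18 0.88 ± 0.18 and 1.27 ± 0.16. Over all genes tested, 5.95% rose and 3.02% fell in numbers 4 to 6, and 15.6% went each way in numbers 1 to 3. Of 9 tested epithelial junction and keratin genes, 2 rose and 1 fell in numbers 4 to 6, and 3 rose and 3 fell in numbers 1 to 3. Of 14 mesenchymal genes, 1 rose in numbers 4 to 6 (1 rose and 2 fell with library totals alone), and 4 rose and 4 fell in numbers 1 to 3. The 1 that rose in both was the repressor Zeb1, by 0.59 ± 0.07 and 0.50 ± 0.07.

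Genes that fell in both ranges did so by smaller steps, with median log2 responses of −0.32 in numbers 4 to 6 and −0.38 in numbers 1 to 3. Only 10 of the 256 fell at least 2-fold in both, against 156 of the 586 that rose. Ptgs2, the inducible cyclooxygenase of prostaglandin synthesis, had 552, 474 and 492 CPM in SIS ECM 4 to 6, against 897, 889 and 849.8 CPM in cells alone 4 to 6. Ptgs2 had 676, 539 and 730.3 CPM in SIS ECM 1 to 3 and 1246, 1294 and 1121 CPM in cells alone 1 to 3. The groups were apart in each range, and the log2 fold change was −0.80 ± 0.10 in numbers 4 to 6 and −0.91 ± 0.10 in numbers 1 to 3, with an interaction of 0.12 ± 0.14 (adjusted p = 0.661, edgeR's quasi-likelihood test). Egr3, an early growth response factor, fell by 1.05 ± 0.10 in numbers 4 to 6 and 0.85 ± 0.09 in numbers 1 to 3. Nppb, the natriuretic peptide B precursor, fell by 0.91 ± 0.11 and 1.04 ± 0.12, the cell adhesion molecule Nrcam by 1.43 ± 0.12 and 0.93 ± 0.11, the phosphatase Ptpn22 by 0.80 ± 0.06 and 0.88 ± 0.06, and the arginine transporter Slc7a1 by 0.36 ± 0.05 and 0.41 ± 0.05.

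**Figure D2:**
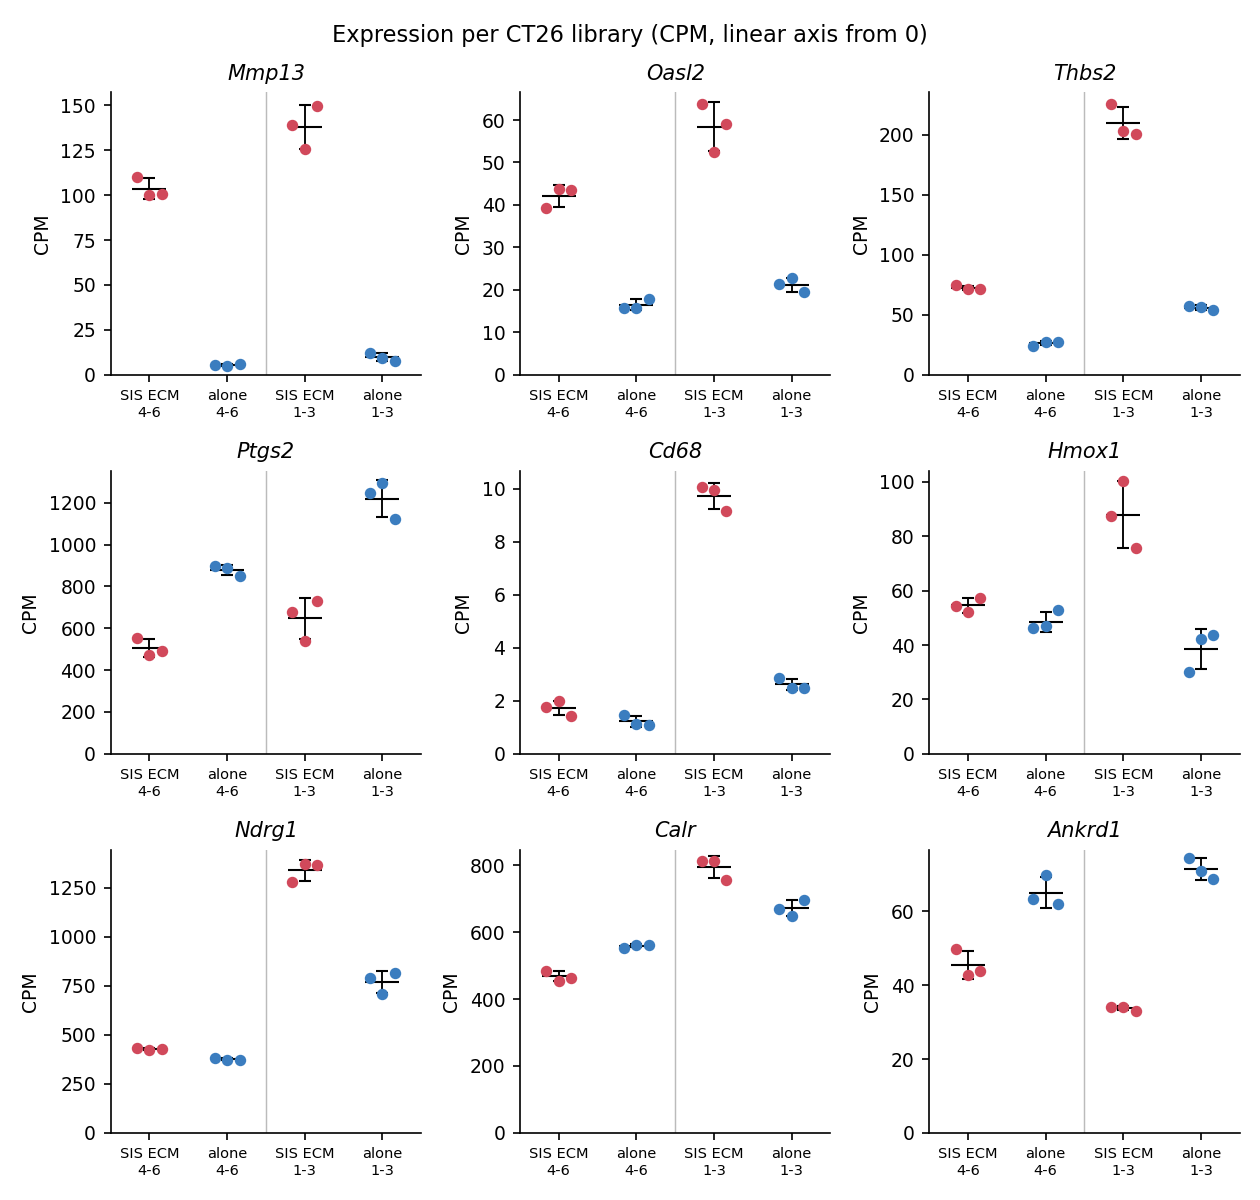
CPM (TMM-scaled, linear axis from 0) of 9 genes in each library, as points with the mean and SD of each group of 3, in the order SIS ECM 4 to 6, cells alone 4 to 6, SIS ECM 1 to 3 and cells alone 1 to 3. Mmp13, Oasl2, Thbs2 and Ptgs2 separate by culture in both ranges; Cd68, Hmox1 and Ndrg1 differ mainly in numbers 1 to 3, Calr turns direction, and Ankrd1 falls less in numbers 4 to 6.

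The 31 interaction genes mostly had a smaller response in numbers 4 to 6. The absolute response was larger in numbers 1 to 3 for 27 of them, 30 were called in numbers 1 to 3, and 9 in numbers 4 to 6. All 19 genes with a lower response in numbers 4 to 6 rose in numbers 1 to 3, with a median log2 response of 0.17 in numbers 4 to 6 and 0.80 in numbers 1 to 3. Of the 12 with a higher response, 11 fell in numbers 1 to 3, with medians of −0.05 and −0.68. Interaction log2 fold changes ran from 0.40 to 1.39 in size, and 2 reached 2-fold, Cd68 and Hmox1. At the threshold, Hexa and Lgr6 lay just inside with adjusted p 0.0475 and 0.0492, and Snrnp200 and Whamm just outside with 0.0503 and 0.0504, by edgeR's quasi-likelihood test.

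Cd68, a lysosomal membrane glycoprotein used as a macrophage marker, had 1.78, 1.98 and 1.44 CPM in SIS ECM 4 to 6, 1.46, 1.11 and 1.09 CPM in cells alone 4 to 6, 10.0, 9.95 and 9.15 CPM in SIS ECM 1 to 3 and 2.85, 2.49 and 2.49 CPM in cells alone 1 to 3. The SIS ECM libraries of numbers 1 to 3 stood above all others, and the groups of numbers 4 to 6 overlapped. Its log2 fold change was 0.50 ± 0.20 in numbers 4 to 6 and 1.89 ± 0.14 in numbers 1 to 3, an interaction of −1.39 ± 0.25 (adjusted p = 0.0374, edgeR's quasi-likelihood test). Limma voom did not call the Cd68 interaction, and edgeR's call ended in 11 of the 12 settings with 1 library left out. Of 20 leukocyte markers only Cd68 and Cd14 passed the filter, Ptprc reached at most 0.287 CPM, and Cd3e, Cd3g, Cd8a, Tyrobp, Fcer1g, Spi1 and Nkg7 had 0 counts in all 12 libraries. The summed level of the 20 markers was 15.7 to 16.2 CPM in SIS ECM 4 to 6, 10.6 to 12.7 in cells alone 4 to 6, 23.4 to 28.1 in SIS ECM 1 to 3 and 12.9 to 14.5 in cells alone 1 to 3. That sum was nearly all Cd14 and Cd68, and the next highest marker, Lyz2, reached at most 0.329 CPM. Cd14 rose by 0.45 ± 0.11 in numbers 4 to 6 and 0.605 ± 0.11 in numbers 1 to 3. The Cd14 call in numbers 4 to 6 ended for 5 of the 12 libraries left out. Hexa, a lysosomal hexosaminidase subunit, rose in both ranges, by 0.41 ± 0.06 in numbers 4 to 6 and 0.87 ± 0.06 in numbers 1 to 3, and still passed the interaction at −0.46 ± 0.09 (adjusted p = 0.0475).

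Hmox1, the haem-degrading enzyme induced by oxidative stress, had 54.4, 52.1 and 57.3 CPM in SIS ECM 4 to 6, against 46.1, 46.9 and 52.8 CPM in cells alone 4 to 6. Hmox1 had 87.5, 100.5 and 75.8 CPM in SIS ECM 1 to 3 and 30.1, 42.2 and 43.6 CPM in cells alone 1 to 3. In numbers 1 to 3 the SIS ECM libraries were all higher, while in numbers 4 to 6 the groups overlapped. The log2 fold change was 0.17 ± 0.12 in numbers 4 to 6 and 1.19 ± 0.12 in numbers 1 to 3, and the interaction was −1.02 ± 0.18 (adjusted p = 0.0328, edgeR's quasi-likelihood test). It was the 1 member of 27 tested NRF2 target and oxidative stress genes that passed the interaction. At an unadjusted p below 0.05 there were 12, beside 17.8% of all genes tested, and 3 passed by DESeq2 and 1 by limma voom.

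Hypoxia-responsive genes and endoplasmic reticulum chaperones had 3 interaction genes each, more than any other list. The 3 among 22 tested hypoxia genes were P4ha2, Ndrg1 and Vegfa. In numbers 4 to 6, 3 of the 22 rose, while in numbers 1 to 3, 16 rose and 1 fell. Of all genes tested, 5.95% rose in numbers 4 to 6, and 15.6% went each way in numbers 1 to 3. The list's median log2 response was 0.11 in numbers 4 to 6 and 0.34 in numbers 1 to 3, and 19 of the 22 interactions were negative, against 51% of all genes tested. Ndrg1, a stress-response protein strongly induced in hypoxic cells, had 432, 424 and 427 CPM in SIS ECM 4 to 6, against 382, 371 and 373 CPM in cells alone 4 to 6. Ndrg1 had 1279, 1371 and 1368 CPM in SIS ECM 1 to 3 and 789, 709 and 816 CPM in cells alone 1 to 3. Both its level and its response were larger in numbers 1 to 3. Its log2 fold change was 0.19 ± 0.06 in numbers 4 to 6, short of the threshold, and 0.80 ± 0.06 in numbers 1 to 3, an interaction of −0.61 ± 0.09 (adjusted p = 0.0183, edgeR's quasi-likelihood test).

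Vegfa, the angiogenic growth factor, had 257, 308 and 295 CPM in SIS ECM 4 to 6, against 246, 265 and 257 CPM in cells alone 4 to 6. Vegfa had 341, 380.3 and 344 CPM in SIS ECM 1 to 3 and 208, 209 and 225 CPM in cells alone 1 to 3. The cells-alone libraries were lower in numbers 1 to 3 and the SIS ECM libraries higher, so the log2 fold change was 0.16 ± 0.07 in numbers 4 to 6 and 0.73 ± 0.07 in numbers 1 to 3. P4ha2, a prolyl hydroxylase that stabilises collagen, had 128, 162 and 156 CPM in SIS ECM 4 to 6, 142, 141 and 132 CPM in cells alone 4 to 6, 152, 177 and 137 CPM in SIS ECM 1 to 3 and 80.0, 80.0 and 95.2 CPM in cells alone 1 to 3. Its interaction of −0.77 ± 0.14 passed at an adjusted p of 0.0469 by edgeR's quasi-likelihood test, beside −0.57 ± 0.10 and 0.0374 for Vegfa. Other members rose in both ranges without a called difference, such as Ankrd37, a HIF target whose exons overlap Lrp2bp and Ufsp2 on the other strand, at 0.32 ± 0.06 and 0.52 ± 0.06. Ero1l, an oxidase of protein folding, had 0.39 ± 0.08 and 0.56 ± 0.08; its call in numbers 4 to 6 ended without cells-alone library 6, at an adjusted p of 0.0608 (lowest over the libraries left out 3.17e-05). With limma on the authors' deposited log2 values Ero1l was at 0.19 in numbers 4 to 6 (adjusted p = 0.141) and 0.87 in numbers 1 to 3. The hypoxia response element core, ACGTG or GCGTG on either strand, stood in 69.2% of the 26 promoters matched to the list and 62.3% of those of all genes tested, and the Vegfa promoter window held none.

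Glucose uptake and glycolysis genes had a like split: 1 of 21 rose in numbers 4 to 6, beside 5.95% of all genes tested. In numbers 1 to 3, 15 rose and 1 fell, beside 15.6% of all genes tested each way. Median log2 responses were 0.03 in numbers 4 to 6 and 0.38 in numbers 1 to 3, and 18 of 21 interactions were negative. Eno2, a glycolytic enolase, had 214, 279 and 267 CPM in SIS ECM 4 to 6, against 195, 204 and 211 CPM in cells alone 4 to 6. Eno2 had 267, 310.1 and 261 CPM in SIS ECM 1 to 3 and 119, 118 and 139.7 CPM in cells alone 1 to 3. The cells-alone level in numbers 1 to 3 was the lowest of the 4 groups, and the interaction of −0.84 ± 0.14 passed at an adjusted p of 0.0328 by edgeR's quasi-likelihood test. No other member passed by that test. Counting Eno2, 11 of the 21 were below an unadjusted p of 0.05, beside 17.8% of all genes tested. DESeq2 called 5 and limma voom 1. In SIS ECM library 3 the list's median lay 0.11 above cells alone on the log2 CPM scale, against 0.45 and 0.53 in SIS ECM 1 and 2 and −0.04, 0.02 and 0.05 in SIS ECM 4, 5 and 6.

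Of 20 tested endoplasmic reticulum chaperones and their regulators, 1 rose and 1 fell in numbers 4 to 6, while 12 rose in numbers 1 to 3. Over all genes tested those shares were 5.95%, 3.02% and 15.6%, in that order. Median log2 responses were −0.03 and 0.20, and all 20 interactions were negative (19 of 20 with RLE size factors), with 3 called: Calr, Hyou1 and Sdf2l1. Calr, the calcium-binding lectin chaperone calreticulin, had 484, 455 and 464 CPM in SIS ECM 4 to 6, against 554, 563 and 561 CPM in cells alone 4 to 6. Calr had 814, 812 and 757 CPM in SIS ECM 1 to 3 and 669.5, 648 and 697 CPM in cells alone 1 to 3. The SIS ECM libraries were all lower in numbers 4 to 6 and all higher in numbers 1 to 3. It fell by 0.26 ± 0.05 on the log2 scale in numbers 4 to 6 and rose by 0.24 ± 0.05 in numbers 1 to 3, with adjusted p 0.00761 and 0.00412 and an interaction of −0.50 ± 0.08 (adjusted p = 0.021, edgeR's quasi-likelihood test). Hyou1, a large chaperone of the reticulum induced by low oxygen, had log2 fold changes of −0.16 ± 0.07 in numbers 4 to 6 and 0.39 ± 0.07 in numbers 1 to 3. Sdf2l1, which keeps misfolding proteins soluble there, had −0.32 ± 0.12 and 0.60 ± 0.12. Neither was called in numbers 4 to 6. Sil1, a nucleotide exchange factor for the chaperone BiP that was named after its values were seen, had an interaction of −0.55 ± 0.10 (adjusted p = 0.0410). The list member Ern1, the stress sensor IRE1, rose alike in both ranges at 0.64 ± 0.06 and 0.66 ± 0.06.

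Calr was 1 of 3 genes called in opposite directions. Kctd11, an adaptor that restrains Hedgehog signalling, had 42.4, 46.5 and 43.3 CPM in SIS ECM 4 to 6, against 53.6, 53.6 and 55.0 CPM in cells alone 4 to 6. Kctd11 had 61.7, 60.4 and 53.5 CPM in SIS ECM 1 to 3 and 50.5, 48.1 and 53.3 CPM in cells alone 1 to 3. It fell by 0.29 ± 0.07 in numbers 4 to 6 and rose by 0.21 ± 0.07 in numbers 1 to 3. Nrg1, a ligand of ERBB receptors whose exons overlap Gm26578 on the other strand, went the other way. It had 41.7, 42.3 and 40.7 CPM in SIS ECM 4 to 6, 32.4, 33.9 and 35.6 CPM in cells alone 4 to 6, 32.2, 32.8 and 36.1 CPM in SIS ECM 1 to 3 and 42.8, 39.6 and 39.3 CPM in cells alone 1 to 3. It rose by 0.29 ± 0.07 in numbers 4 to 6 and fell by 0.27 ± 0.07 in numbers 1 to 3. Interactions of −0.50 ± 0.10 for Kctd11 and 0.56 ± 0.09 for Nrg1 had adjusted p 0.0469 and 0.0328 by edgeR's quasi-likelihood test.

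Prdm1, a transcriptional repressor of terminal differentiation, rose in both ranges and by more in numbers 1 to 3. It had 33.2, 32.8 and 34.5 CPM in SIS ECM 4 to 6, against 22.1, 21.9 and 20.1 CPM in cells alone 4 to 6. Prdm1 had 61.7, 68.7 and 80.5 CPM in SIS ECM 1 to 3 and 26.1, 23.5 and 28.7 CPM in cells alone 1 to 3. The log2 fold changes were 0.65 ± 0.10 and 1.42 ± 0.09, an interaction of −0.77 ± 0.14 (adjusted p = 0.0374, edgeR's quasi-likelihood test). Among the other genes with a lower response in numbers 4 to 6, Arrb1, a scaffold of receptor desensitisation, had responses of 0.25 ± 0.08 in numbers 4 to 6 and 1.01 ± 0.08 in numbers 1 to 3. Rin2, a RAB5 exchange factor, had −0.04 ± 0.07 and 0.68 ± 0.07, and Padi2, a peptidylarginine deiminase, 0.20 ± 0.10 and 1.03 ± 0.09. Bcl2l11, the pro-apoptotic protein BIM, had −0.09 ± 0.08 and 0.52 ± 0.08. Rdh10, which makes retinal from retinol, had 0.33 ± 0.08 and 1.03 ± 0.08, and its call in numbers 4 to 6 ended without SIS ECM 4 or 5 or cells alone 5 or 6, with adjusted p from 0.00116 to 0.111 over the 12 libraries left out. Lgr6, an R-spondin receptor named after its values were seen, had an interaction of −0.46 ± 0.09 (adjusted p = 0.0492).

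On the other side, most genes with a higher response in numbers 4 to 6 fell with SIS ECM in numbers 1 to 3 and were not called in numbers 4 to 6. Fam198b, a Golgi-associated kinase-like protein, had 34.0, 31.4 and 29.9 CPM in SIS ECM 4 to 6, against 37.2, 36.2 and 36.2 CPM in cells alone 4 to 6. Fam198b had 22.04, 19.3 and 16.1 CPM in SIS ECM 1 to 3 and 40.7, 41.1 and 39.1 CPM in cells alone 1 to 3. The cells-alone libraries of both ranges were near each other, and the SIS ECM libraries of numbers 1 to 3 were the lowest. The log2 fold change was −0.20 ± 0.09 in numbers 4 to 6 and −1.07 ± 0.09 in numbers 1 to 3, an interaction of 0.86 ± 0.13 (adjusted p = 0.0183, edgeR's quasi-likelihood test). Ogn, the small leucine-rich matrix proteoglycan osteoglycin, had 184, 158 and 162 CPM in SIS ECM 4 to 6, against 174, 167 and 166 CPM in cells alone 4 to 6. Ogn had 108, 95.4 and 111 CPM in SIS ECM 1 to 3 and 181, 177 and 160.0 CPM in cells alone 1 to 3. It fell in numbers 1 to 3, by 0.72 ± 0.07, and its interaction was 0.71 ± 0.10 (adjusted p = 0.0183).

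Ankrd1, a target of the mechanosensitive factors YAP and TEAD, fell in both ranges and by less in numbers 4 to 6. It had 49.8, 42.9 and 43.9 CPM in SIS ECM 4 to 6, 63.3, 69.9 and 62.1 CPM in cells alone 4 to 6, 34.2, 34.2 and 33.1 CPM in SIS ECM 1 to 3 and 74.6, 70.9 and 68.7 CPM in cells alone 1 to 3. Its log2 fold changes were −0.51 ± 0.07 and −1.08 ± 0.07, an interaction of 0.56 ± 0.10 (adjusted p = 0.0374, edgeR's quasi-likelihood test). Elovl6, an elongase of saturated fatty acids, likewise fell by 0.37 ± 0.06 in numbers 4 to 6 and 0.87 ± 0.06 in numbers 1 to 3. Fbln5, which organises elastic fibres, rose by 0.56 ± 0.10 in numbers 4 to 6, and was at −0.16 ± 0.09 in numbers 1 to 3 (adjusted p = 0.175). Its groups did not overlap in either range, with the SIS ECM libraries above in numbers 4 to 6 and below in numbers 1 to 3.

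Steap1, a metalloreductase-family membrane protein, had responses of −0.06 ± 0.08 in numbers 4 to 6 and −0.73 ± 0.08 in numbers 1 to 3. Dkc1, the pseudouridine synthase of small nucleolar and telomerase RNA particles, had −0.09 ± 0.07 and −0.66 ± 0.07, and Amigo2, a leucine-rich adhesion protein, −0.04 ± 0.05 and −0.53 ± 0.05; both overlap exons on the other strand, of Mpp1 and Pced1b. Ctps, which makes CTP, had −0.06 ± 0.06 and −0.50 ± 0.06, and the nucleolar protein Lyar 0.00 ± 0.05 and −0.40 ± 0.05. All 5 fell in numbers 1 to 3 and none in numbers 4 to 6, where the largest in size was −0.09 ± 0.07.

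All 13 mitochondrially encoded transcripts had a positive interaction, with a median of 0.41, against −0.01 over all genes tested. Their median log2 response was 0.00417 in numbers 4 to 6, where none was called (2 fell with library totals alone), and −0.56 in numbers 1 to 3, where 10 fell. At an unadjusted p below 0.05 the interaction held 11 of the 13, DESeq2 called 7, limma voom 1 and edgeR's quasi-likelihood test after adjustment 1, mt-Nd4l, a subunit of complex I whose reading frame overlaps mt-Nd4. It had 315, 262 and 277 CPM in SIS ECM 4 to 6, against 254, 301 and 226 CPM in cells alone 4 to 6. mt-Nd4l had 81.3, 86.8 and 96.4 CPM in SIS ECM 1 to 3 and 142, 143 and 140.5 CPM in cells alone 1 to 3. Its level differed more between the ranges than between cultures, and its interaction was 0.82 ± 0.14 (adjusted p = 0.0328). The share of counts from these genes, given above, differed between the ranges in both cultures, and its part in the interactions was not tested. The 33 respiratory chain subunits encoded in the nucleus had a median interaction of 0.08, with 2 risen and 1 fallen in numbers 4 to 6 and 6 risen and 5 fallen in numbers 1 to 3. The shares over all genes tested were 5.95% and 3.02% in numbers 4 to 6, and 15.6% each in numbers 1 to 3.

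Mitotic spindle and kinetochore genes leaned one way without a called gene. All 30 interactions were positive (28 of 30 with library totals alone), with 25 fallen in numbers 1 to 3 and 1 in numbers 4 to 6. Of all genes tested, 15.6% fell in numbers 1 to 3 and 3.02% in numbers 4 to 6. The median log2 response was −0.07 in numbers 4 to 6 and −0.36 in numbers 1 to 3. By edgeR's quasi-likelihood test 0 passed the interaction and 23 were below an unadjusted p of 0.05, beside 17.8% of all genes tested. DESeq2 called 15 and limma voom 0. Cenpe, a kinetochore motor and the list's 1 held gene, had 388, 344 and 359 CPM in SIS ECM 4 to 6, against 443, 447 and 426 CPM in cells alone 4 to 6. Cenpe had 266, 257 and 296 CPM in SIS ECM 1 to 3 and 429, 422 and 379 CPM in cells alone 1 to 3. Its log2 fold change was −0.27 ± 0.07 in numbers 4 to 6, a call that ended without SIS ECM 5 or 6 or cells alone 4 or 5 (adjusted p 0.00263 to 0.0938 over the 12 libraries left out), and −0.59 ± 0.07 in numbers 1 to 3.

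Cholesterol synthesis and circadian genes were also called more often in numbers 1 to 3, as were all genes tested. The shares over all genes tested were 5.95% risen and 3.02% fallen in numbers 4 to 6, and 15.6% each way in numbers 1 to 3. Of 23 sterol genes, 4 rose in numbers 4 to 6, and 1 rose and 12 fell in numbers 1 to 3, with medians of −0.07 and −0.21 on the log2 scale. Of 16 circadian genes, 3 rose in numbers 4 to 6 (2 rose and 1 fell with library totals alone), and 11 rose and 1 fell in numbers 1 to 3, with medians of 0.02 and 0.47. By edgeR's quasi-likelihood test 0 passed the interaction in either list, against 11 sterol and 10 circadian genes at an unadjusted p below 0.05, 6 and 3 by DESeq2 and 0 and 0 by limma voom. Of all genes tested, 17.8% were below that unadjusted p. Bhlhe40, a repressor of the clock that is also induced by low oxygen, rose in both ranges by 0.33 ± 0.06 and 0.56 ± 0.06. Per3, a clock repressor, had 0.37 ± 0.09 and 0.71 ± 0.09; its call in numbers 4 to 6 ended without SIS ECM 5 or 6 or cells alone 4, 5 or 6 (adjusted p 0.00202 to 0.0888 over the 12 libraries left out).

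**Figure D3:**
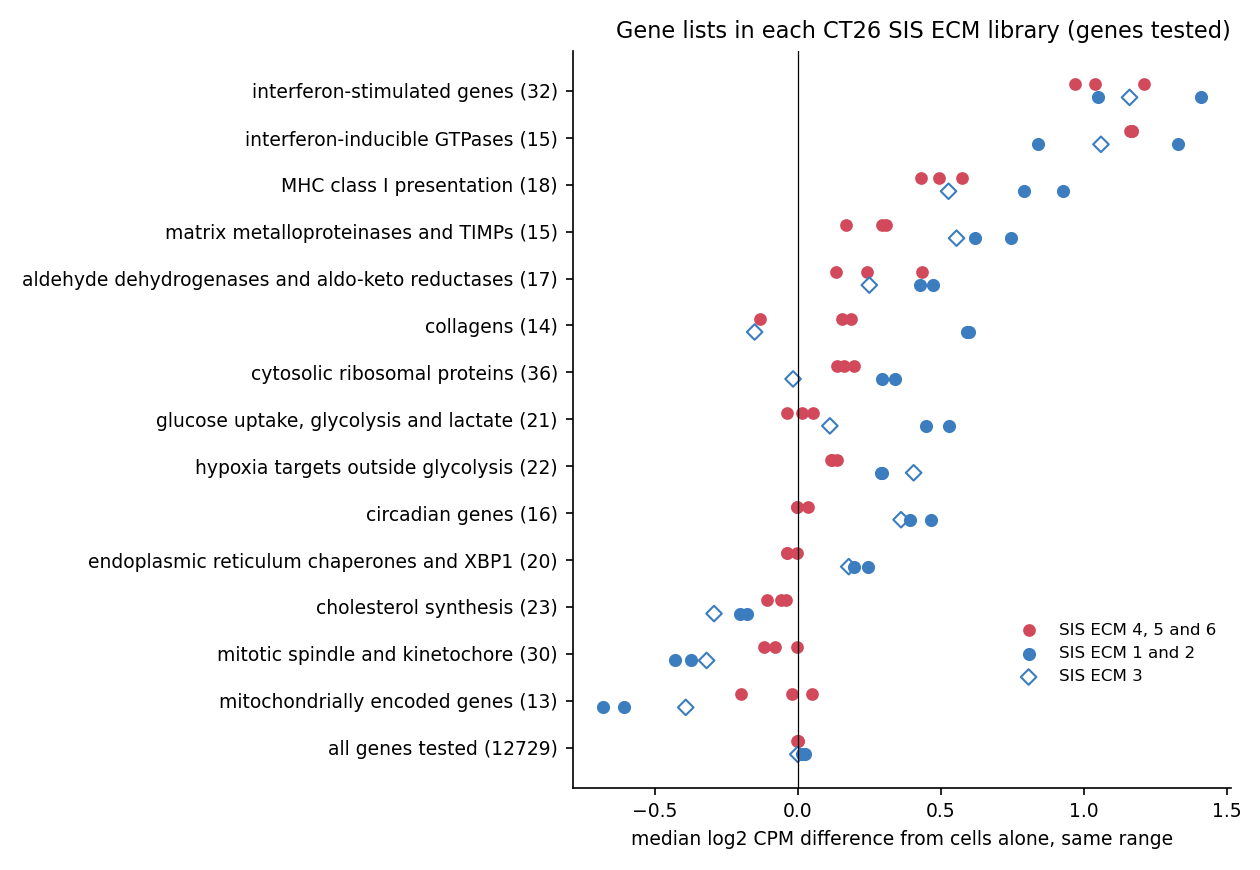
Median log2 CPM difference from the mean of the cells-alone libraries of the same range, for 14 gene lists and all genes tested, in each SIS ECM library (numbers 4, 5 and 6 in red, 1 and 2 in blue, 3 as an open diamond). Interferon lists lie to the right in all 6 libraries, glycolysis and mitochondrially encoded lists separate the ranges, and library 3 lies apart from 1 and 2 for collagens and ribosomal proteins.

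The number of interaction calls rested on single libraries. Leaving out SIS ECM library 3 gave 3101 interaction genes (1835 higher and 1266 lower in numbers 4 to 6, 23.9% of 12953), which included all 31. Held genes named above that passed only in that setting's fit, not with all 12 libraries, were Mmp13, Thbs2, Lama3, Krt18, Nrcam and Cenpe. Leaving out SIS ECM 6, or any of cells alone 1, 2, 4, 5 and 6, gave 0 by edgeR's quasi-likelihood test, with 1586 to 2164 genes at an unadjusted p below 0.05, 99 to 226 called by DESeq2 and 0 by limma voom. Without SIS ECM 4 there was 1, without SIS ECM 5 there were 13, without SIS ECM 1 there were 9, without SIS ECM 2 there were 19, and without cells alone 3 there were 34. Over the 12 settings the interaction of Cd68 ran from −1.496 to −1.25 and Hmox1 from −1.12 to −0.87. Ndrg1 ran from −0.65 to −0.54 and Fam198b from 0.77 to 0.98. The calls of these genes ended in 11, 9, 7 and 7 of the 12 settings, in that order. Their adjusted p by edgeR's quasi-likelihood test reached 0.14, 0.131, 0.0878 and 0.0878. Of the named interaction genes, Rin2 kept its call in the most settings, 6. No named interaction gene changed sign in any of the 12 settings. These genes were picked for passing in the same libraries, so that is a description only. Held genes numbered between 527, without cells alone 5, and 1274, without SIS ECM 3. Besides SIS ECM 5 and 6 (546 and 541) and cells alone 4 (546) and 6 (560), no other library left out moved the total of 842 by over 1.5 times.

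Ribosomal protein genes, which encode the cytosolic ribosome, lay 0.02 below cells alone in library 3 by their median, against 0.29 and 0.34 above in libraries 1 and 2. Without library 3, 28 of the 36 rose in numbers 1 to 3, against 13 with it. Over all genes tested, 3037 of 12953 rose in numbers 1 to 3 without library 3, against 1990 of 12729 with it. The interaction passed for 23.9% of all genes tested without library 3, the share to set beside the list counts that follow. Interactions called without library 3, for other lists described above, were 4 of 15 lower and 1 higher for matrix proteases and inhibitors, 11 of 26 lower and 2 higher for laminins and glycoproteins, 5 of 14 lower and 1 higher for collagens, and 8 of 27 lower and 3 higher for NRF2 targets. They were 8 higher and 3 lower of 33 for respiratory chain subunits encoded in the nucleus. They were 8 of 22 lower for hypoxia, 14 of 21 lower and 1 higher for glycolysis, 9 of 20 lower for chaperones, 11 of 13 higher for mitochondrially encoded genes, 24 of 30 higher for mitotic genes, 12 of 23 higher and 1 lower for sterol genes, and 1 higher and 5 lower of 16 for circadian genes.

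**Figure D4:**
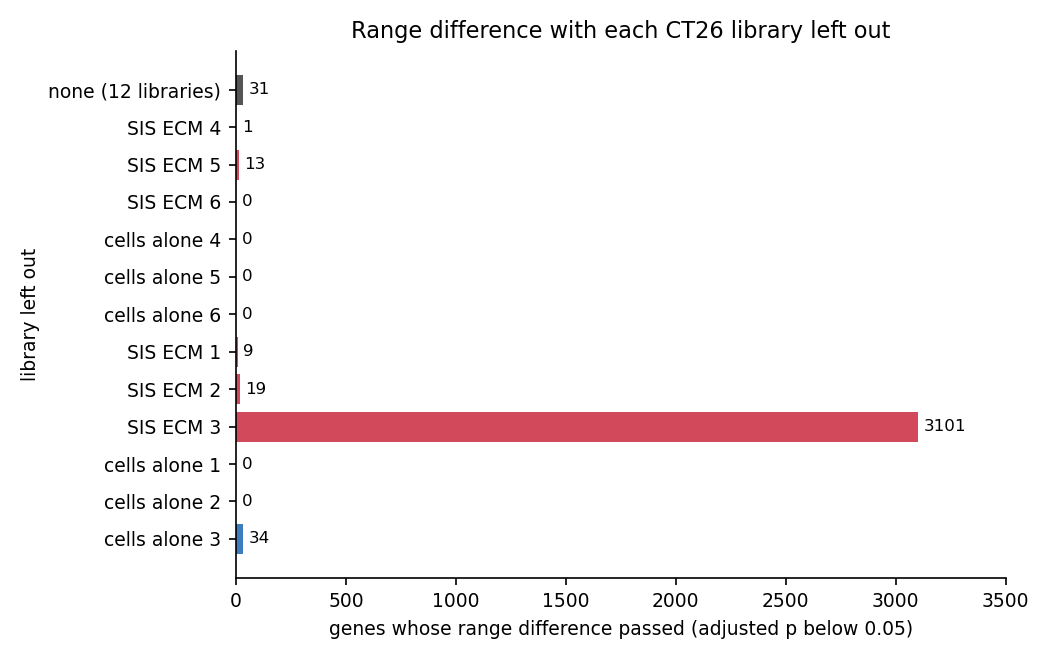
Number of genes with a called interaction (edgeR's quasi-likelihood test, Benjamini-Hochberg adjusted p below 0.05) with all 12 libraries and with each library left out, as horizontal bars on a linear axis from 0. With all libraries there were 31, without SIS ECM 3 there were 3101, and in 6 of the 12 settings there were 0.

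The same contrast was fitted in the other lines, and that of MC38 was tested against CT26. In MC38, with 3 SIS ECM and 2 cells-alone libraries in numbers 4 to 6 and 2 and 3 in numbers 1 to 3, 2813 of 13767 genes passed the interaction (20.4%), 1291 higher and 1522 lower. With library totals alone that split was 2308 and 600, where the median interaction over all genes was 0.10 log2 units, against −9.75e-05 with TMM. In HT29, 0 of 15766 passed (0%) by edgeR's quasi-likelihood test and 0 by DESeq2 and limma voom, while 253 were below an unadjusted p of 0.05 and 75 passed with no filter on low counts; the HT29 contrast was not tested against CT26. The CT26 interaction minus the MC38 interaction passed for 2355 of 14725 genes (16%), 1477 higher and 878 lower in CT26. With library totals alone the split was 607 and 1835, with a median difference of −0.20, against −0.01 with TMM.

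Of the 29 CT26 interaction genes picked by the naming rule, 25 differed from MC38 by that test (22 with library totals alone), and all 29 kept the sign of the difference under each scaling. Since these genes were chosen on the CT26 values that enter the difference, the count is a description. In 11 of them the MC38 interaction was itself called with the opposite sign (10 with library totals alone). Prdm1 had an interaction of −0.77 in CT26 and 2.73 in MC38, where it was at 0.54 in numbers 4 to 6 and −2.197 in numbers 1 to 3. Vegfa had −0.57 in CT26 and 0.89 in MC38, Ndrg1 −0.61 and 0.55, P4ha2 −0.77 and 1.05, Kctd11 −0.50 and 1.04, and mt-Nd4l 0.82 and −0.80. In MC38 the hypoxia list had 20 of 25 interactions called higher, with a median of 0.66, and the mitochondrially encoded list had 11 of 13 called lower, with a median of −0.68, both opposite in sign to CT26. Fam198b, Cd68, Eno2 and Padi2 did not pass the test against MC38, with differences of 1.395 ± 0.73, −1.10 ± 0.44, −1.29 ± 0.51 and −0.32 ± 0.27.

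**Figure D5:**
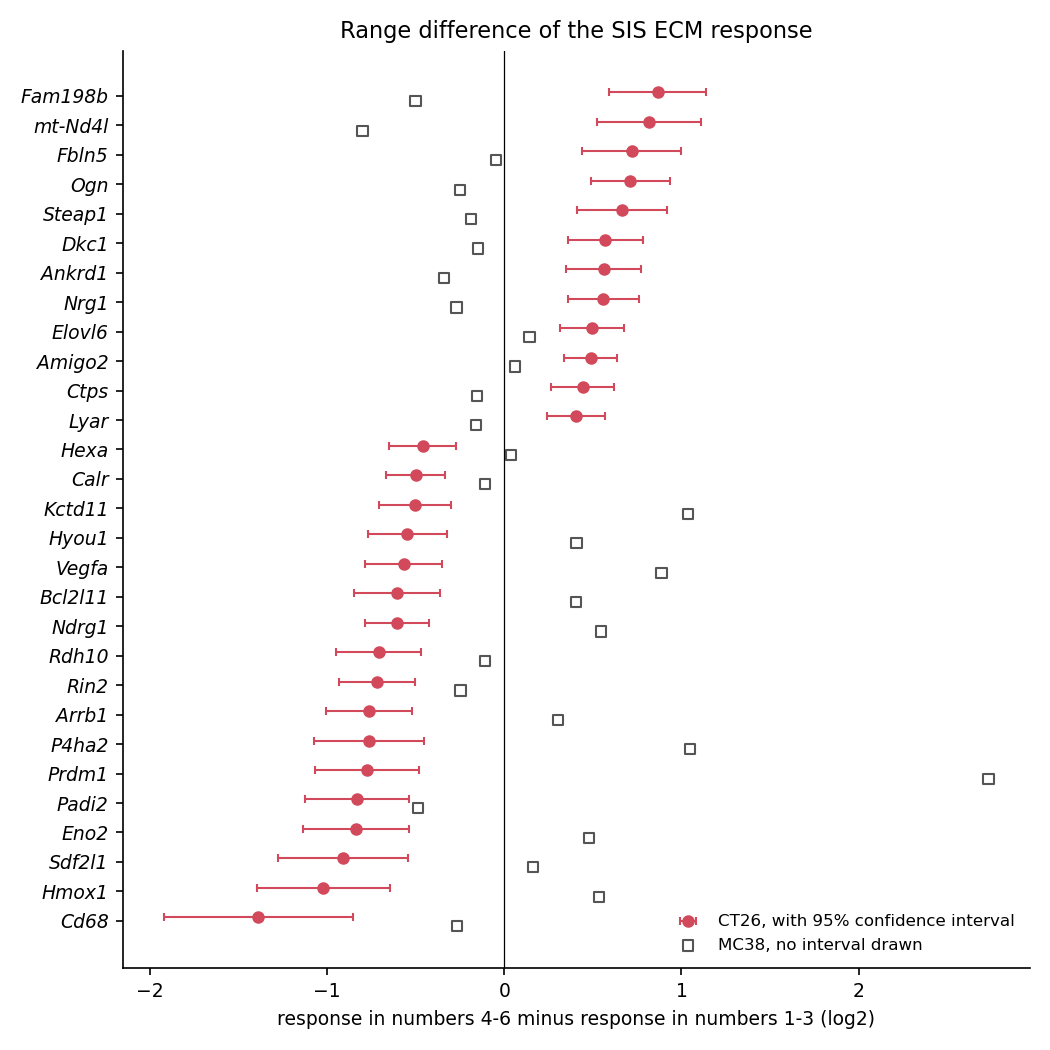
Interaction log2 fold change (response in numbers 4 to 6 minus response in numbers 1 to 3) of 29 named genes in CT26, as points with 95% confidence intervals, with the MC38 value as a square. All CT26 intervals exclude 0, as the choice of genes requires, and the MC38 squares of Prdm1, P4ha2, Kctd11 and Vegfa lie on the other side of 0.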

How the data were processed

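PolyA RNA of 12 CT26 libraries was analysed, 3 in each of 4 groups. The authors deposited a table of expected counts per gene, not normalised, and, in a further table, log2 values per library; per the submitters' processing notes, cutadapt 1.18, STAR 2.7.0f, RSEM 1.3.1 and limma were used with mm10 and hg38, without a role for each. The use of strand in counting was not given in the sources used here. Expected counts were rounded to whole numbers. edgeR 4.0.16 (R 4.3.3) fitted 1 mean per group with TMM factors, after filterByExpr with a minimum count of 10, and the quasi-likelihood F test, two-sided, gave each contrast; standard errors are the log2 fold change over the square root of F. All adjusted p-values are Benjamini-Hochberg over the genes tested, with 0.05 as the threshold for "rose", "fell" and "passed". CPM values are TMM-scaled. The fits were tested on simulated data. No libraries were duplicates: the chi-square per degree of freedom within groups ran from 1.89 to 34.2.

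Members, the number ranges and the 42 gene lists were chosen with earlier results of these data known, and the lists are described by counts and medians without a list test. Genes were named by a rule: the 12 highest and 12 lowest interactions passing, the 8 per direction with the largest smaller response of the held genes, genes called in opposite directions, and up to 3 interaction and 2 held members per list; some list members were left out of the text, and some results are not reported here. A mean log2 CPM of 2 was the minimum outside lists. Coordinates of promoters are GRCm38.p6 from RefSeq; exon overlaps are from the GENCODE annotation of mm10. Alternatives were RLE factors, library totals alone, DESeq2 1.42.0, limma 3.58.1 with voom, no filter, a minimum count of 50, no mitochondrially encoded genes, the spread of all 22 mouse libraries, a number block and each library left out; leaving out SIS ECM 3 and 4 together, and limma on the authors' log2 values, were added after seeing the data. The deposited tables hold 22 other per-sample columns that were not used.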

Additional observations from a re-analysis of the deposited data

Results flagged for a closer look

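The interaction differed between CT26 and MC38 for 25 of the 29 named genes, by edgeR's quasi-likelihood test of the CT26 minus MC38 difference over 22 mouse libraries with Benjamini-Hochberg adjustment. The genes were chosen on CT26 values that enter this difference, and the adjusted p ran from 4.35e-09 (Prdm1) to 0.0484 (Fbln5). Of the 11 genes whose interaction was more positive in CT26, the log2 difference was 1.64 for mt-Nd4l, 0.98 for Ogn, 0.92 for Ankrd1, 0.88 for Steap1, 0.85 for Nrg1, 0.79 for Fbln5, 0.75 for Dkc1, 0.62 for Ctps, 0.59 for Lyar, 0.45 for Amigo2 and 0.38 for Elovl6. Of the 14 whose interaction was more negative in CT26, it was −3.48 for Prdm1, −1.79 for P4ha2, −1.54 for Hmox1, −1.52 for Kctd11, −1.43 for Vegfa, −1.13 for Ndrg1, −0.98 for Bcl2l11 and −0.94 for Hyou1. The others were at −1.05 for Sdf2l1, −1.04 for Arrb1, −0.57 for Rdh10, −0.48 for Hexa, −0.45 for Rin2 and −0.37 for Calr.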

How the results depend on the processing

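The interaction of the 29 genes picked by the naming rule and both responses of the 70 held ones kept their signs under the alternatives run for them, while counts of calls moved. Both sets were picked for passing in the same libraries, so the kept signs are a description only. Interaction counts, higher then lower in numbers 4 to 6, were 29 and 49 with library totals alone, 235 and 109 with DESeq2, 327 and 369 with no filter, 473 and 167 with the spread of 22 mouse libraries, 1304 and 843 without SIS ECM 3 and 4, and 96 and 79 with the authors' log2 values; lower was 9 with limma voom and higher 20 with a minimum count of 50. Opposite calls were 6, 5, 5, 24, 7, 24 and 8 with library totals, DESeq2, voom, no filter, the spread of 22 libraries, SIS ECM 3 and 4 left out and the authors' log2 values, in that order. The spread of 22 libraries gave 715 fallen in numbers 4 to 6 and 517 held falls. Without SIS ECM 3 and 4, 698 fell in numbers 4 to 6, 3145 rose and 3164 fell in numbers 1 to 3, and 546 falls were held. MC38 with library totals gave 2308 and 600, CT26 against MC38 607 higher and 1835 lower, and HT29 with no filter 38 and 37. The cause was not tested.

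With each CT26 library left out, the interaction counts ran from 0 to 1835 higher and 0 to 1266 lower, rises in numbers 4 to 6 from 433 to 1233 and falls from 207 to 764, rises in numbers 1 to 3 from 1327 to 3037 and falls from 1261 to 3061, held rises from 376 to 786, held falls from 147 to 488 and opposite calls from 2 to 56. With each library of the fit left out, CT26 against MC38 ran from 843 to 2255 higher and 454 to 1840 lower, and MC38 from 646 to 1431 higher and 807 to 1633 lower. Of 140 held responses of 70 named genes, 124 to 140 stayed called with 1 library left out and 131 with the authors' log2 values. With 3 libraries a group, a median standard error of 0.146 limits what interaction the test can call.

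A fit with the sample number as a replicate block gave 0 higher and 0 lower interactions by edgeR's quasi-likelihood test (1447 at an unadjusted p below 0.05), 406 rises and 120 falls in numbers 4 to 6, 1307 and 1200 in numbers 1 to 3, 341 held rises, 80 held falls and 1 opposite call, and 121 of the 140 held responses stayed called; those in numbers 4 to 6 of Rdh10, Col1a2, Cenpe and Per3 did not. The labels do not say whether same-numbered libraries shared more than a number. Their deviations from the group means correlated at 0.0502, 0.00436 and 0.033 for numbers 4, 5 and 6. For numbers 1, 2 and 3 the correlations were −0.104, −0.167 and −0.323.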
